A study of Mus musculus with 10 samples.

Results

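The genes described are 54 members of the Wnt signalling pathway: 18 ligands, 10 Frizzled receptors, 6 coreceptors and other receptors, 10 secreted antagonists, 3 R-spondins and 7 feedback targets. They were chosen by gene name, with earlier results of these data known. They were found through their Ensembl identifiers among the 40620 genes of the count table. The RNA came from the mouse pre-osteoblast line MC3T3-E1, subclone 4, so every sample comes from 1 clone. The cells were collected at 5 stages with 2 replicates each, named A and B. Subconfluent and confluent cells had grown in αMEM with 10% serum. Cells collected at 24 h, 14 d and 21 d had been in osteogenic medium from confluence on, the same medium with ascorbic acid at 50 µg/ml and β-glycerophosphate at 10 mM. No culture held for these times without the osteogenic additions was analysed here, so time and medium cannot be told apart.

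Wnt ligands are lipid-modified secreted proteins that bind a Frizzled receptor together with the coreceptor Lrp5 or Lrp6 and thereby stop the destruction of β-catenin, which enters the nucleus and activates genes with the DNA-binding proteins Tcf7 and Lef1. Several of the genes activated in this way, Axin2 among them, dampen the signal again, and secreted antagonists hold it back outside the cell. In bone the pathway promotes osteoblast formation, and loss of LRP5 in people gives low bone mass.

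Between 44736156 and 162939333 reads were counted on genes per sample. Levels are given as RPKM, the authors' reads scaled to gene length and library size, which allows genes of different length to be compared, and pairs of values give replicate A and then replicate B. The library size implied by the RPKM values was smaller than the counted reads. The counted reads were 1.44 to 1.60 times as many, with the highest ratio in 24 h replicate A. Differences were tested on the counts with edgeR's quasi-likelihood test, fitted to all 10 samples, and a gene was called, and is said to rise or fall, where adjusted p was under 0.05 and the difference was over 2-fold. The test could be made for 42 of the 54 members, which had enough counts. It scaled library sizes by TMM factors, which RPKM does not include. These were 1.08 and 1.08 in subconfluent cells and 0.913 and 0.9135 at 14 d. Folds between stages therefore differ between RPKM and the test. Nothing in the labels says that replicates were separate cultures, so p-values measure the spread between these samples. In bulk RNA, fewer cells of a kind and less RNA per cell cannot be told apart.

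The replicates at 24 h stood apart from each other. For the 33 members that had 10 or more counts throughout, the SD of the log2 ratio between replicates was 0.42 at 24 h, beside 0.22, 0.17, 0.13 and 0.13 for subconfluent, confluent, 14 d and 21 d cells. Over all 16133 genes with such counts it was 0.69 at 24 h, beside 0.30, 0.31, 0.33 and 0.29. Among the 33 members Fzd4 showed the widest gap at 24 h, 1.33 on the log2 scale. The subconfluent, confluent and 24 h libraries carry one pair of index sequences and the 14 d and 21 d libraries another, so the early and late stages cannot be told apart from these library sets. Comparisons of confluent with subconfluent, 24 h with confluent and 21 d with 14 d cells lie within a set. The comparisons also share samples with each other, so their results are given side by side and were not set against each other.

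All 8 osteoblast markers reached 1 RPKM in at least 1 library, and Col1a1 was the most abundant. Of 5 osteocyte markers 3 reached 1 RPKM, and Sost and Fgf23 stayed under 0.1 RPKM. Markers of other cells differed within their lists. Ptprc of blood cells and Myod1 of muscle had 0 counts in all 10 libraries, Adgre1 had at most 1 count, and all 4 endothelial markers stayed under 0.1 RPKM. The blood cell list summed to 13.2 to 19.2 RPKM, mostly from Lyz2, with Csf1r at 1.83 to 3.19 RPKM and Cd68 at 0.464 to 0.936 RPKM. The adipocyte list summed to at most 1.09 RPKM, with Fabp4 its most abundant gene and the other 4 under 0.1 RPKM.

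Some marker lists differed between stages, and no test of them was made. The summed RPKM of the 5 chondrocyte markers was 176 and 174 in subconfluent cells, 97.7 and 89.3 at confluence, 45.7 and 62.8 at 24 h, 235 and 242 at 14 d, and 111 and 119.5 at 21 d. It was lowest in the 24 h libraries and highest at 14 d, and Acan stayed under 0.1 RPKM. Most of it and its course came from Col2a1, while Sox9, at 36.1 and 35.1 RPKM, and Col10a1, at 1.67 and 5.88 RPKM, were highest at 21 d. The 5 osteocyte markers had a summed RPKM of 1.39 and 1.26 in subconfluent cells, 1.26 and 1.26 at confluence, 1.45 and 1.43 at 24 h, 19.8 and 20.9 at 14 d, and 38.5 and 28.2 at 21 d, with both late stages above all early libraries. The higher sum at 21 d than at 14 d came from Dmp1, with means of 22.5 and 5.83 RPKM. Phex and Mepe were lower at 21 d, at 2.20 and 8.64 RPKM beside 3.86 and 10.7 at 14 d. The summed RPKM of the 4 muscle markers, mostly Acta1, was 43.0 and 43.8 in subconfluent cells, 42.1 and 37.6 at confluence, 21.8 and 32.0 at 24 h, 19.0 and 15.5 at 14 d, and 14.6 and 14.7 at 21 d, lowest at 21 d. The adipocyte list had a summed RPKM of 0.0224 and 0.0510 in subconfluent cells, 0.0832 and 0.105 at confluence, 0.977 and 1.09 at 24 h, 0.229 and 0.0892 at 14 d, and 0.430 and 0.210 at 21 d, highest at 24 h. The osteoblast list, mostly Col1a1 and Col1a2, had a summed RPKM of 9598 and 9308 in subconfluent cells, 10180.2 and 9909 at confluence, 7438 and 11358 at 24 h, 21577 and 19849.6 at 14 d, and 13639 and 12442 at 21 d, highest at 14 d. Some single osteoblast markers changed by more than this sum. Bglap had 1.11 and 3.89 RPKM in subconfluent cells and 1197 and 1034 at 14 d. Ibsp had 20.04 and 11.8 RPKM in subconfluent cells and 4081 and 4374 at 14 d. Spp1 had 284 and 283 RPKM at 14 d and was highest at 21 d, at 1509 and 968. All osteoblast markers but Spp1 were highest at 14 d by stage mean. Whether the genes of these marker lists bear on the Wnt pathway genes was not tested.

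Most changes of the Wnt pathway genes were increases. From subconfluent to confluent cells, which differ in density, 7 of the 42 tested members rose, against 1.0% of all 20808 genes tested that rose and 0.423% that fell. The number of all genes called here moved down by more than 1.5 times without either subconfluent replicate or confluent replicate B. It moved up as far without either 24 h replicate. During the first 24 h of osteogenic medium 8 members rose, against 1.76% of all genes rising and 0.365% falling. The number of all genes called in this step moved by more than 1.5 times, up without 24 h replicate B. It moved down as far without either confluent or either 14 d replicate. From 24 h to 14 d, which crosses the library sets, 10 members rose, against 4.47% and 1.51% of all genes. Here too the number of all genes called moved by more than 1.5 times, up without 24 h replicate B and down without either 14 d replicate. No member was called lower by edgeR in these 3 comparisons. At an unadjusted p under 0.05, 5, 4 and 3 members were lower, and DESeq2 called 0 lower in each. From 24 h to 14 d edgeR called 1 lower without 24 h replicate B and without either 21 d replicate. In the last week, from 14 d to 21 d, 3 members rose and 3 fell, against 1.52% and 2.45% of all genes. Of all 20808 genes 826 were called in this step, and 2023 at an adjusted p under 0.05 with any fold change. The first number moved down by more than 1.5 times without 21 d replicate A. By edgeR 6 members were higher and 17 lower there at an unadjusted p under 0.05, and 3 higher and 8 lower at an adjusted p under 0.05 with any fold change. Without 14 d replicate A or B 1 rose, and 6 fell without 24 h replicate A or B and when only these 2 stages were fitted. Without 1 library some counts moved by more than 1.5 times: 4 members were called in confluent against subconfluent cells without subconfluent replicate A, 3 at 24 h without either confluent replicate, and 3 at 21 d against 14 d (2 higher, 1 lower) without 21 d replicate B. Fitted on the 24 h and confluent libraries alone, 0 members and 0 of all genes were called, and 16 members had an unadjusted p under 0.05.

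The remaining comparisons also cross the library sets. At 14 d against confluent cells 19 members rose and 2 fell, and these shares of 45.2% and 4.76% of the tested members stand beside 9.15% and 3.85% of all genes. Between subconfluent cells and 21 d 20 rose and 3 fell, 47.6% and 7.14% of the tested members beside 16.3% and 11.3% of all genes. The share that fell was thus near or under that of all genes in both. Dkk1, counted at 14 d, and Rspo3, counted at 21 d, entered the test only through the stage where they were highest. The members were also chosen with earlier results of these data known. At 14 d against confluent cells 0 fell without confluent replicate A and 1 without 14 d replicate A or B. The median log2 fold change of the tested members was 1.01 at 21 d against subconfluent cells, beside 0.04 over all genes tested. Over the 5 stages 33 of the 42 members differed by the F test, beside 48.9% of all genes. By class these were 9 of 11 ligands, 7 of 8 Frizzleds, 3 of 6 coreceptors, 7 of 7 antagonists, 2 of 3 R-spondins and 5 of 7 feedback targets.

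**Figure D1:**
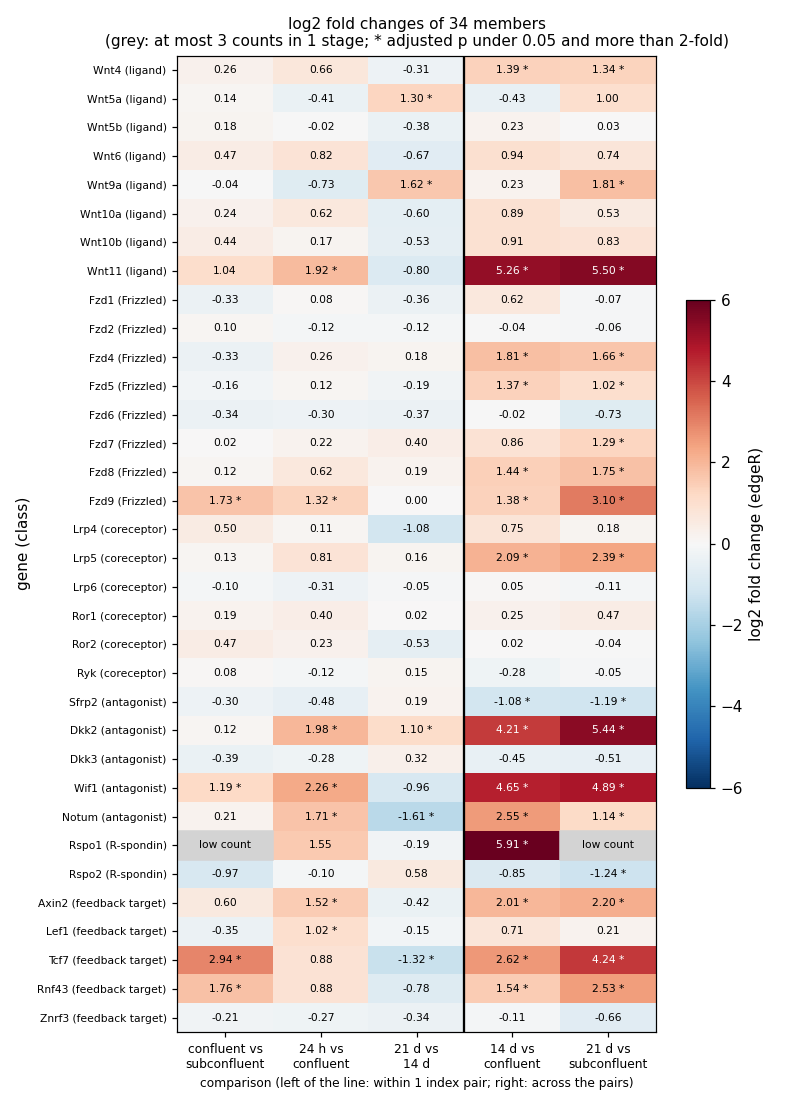
Heatmap of the log2 fold change of the 34 members with a mean of at least 1 RPKM in some stage (rows) in 5 comparisons (columns), the 3 on the left within 1 index pair and the 2 on the right across the pairs. The number in each cell is the edgeR estimate, an asterisk marks adjusted p under 0.05 with more than 2-fold change, and grey cells had at most 3 counts in 1 stage; Tcf7 and Rnf43 change at confluence, Wnt11, Dkk2 and Wif1 at 24 h and again across the pairs.

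Of the 18 ligands, 8 reached a mean of 1 RPKM in some stage, and Wnt10a, Wnt6 and Wnt10b held most of the ligand RNA. Together they made up between 76.4% and 88.6% of the summed ligand RPKM in every library. Wnt10a, a ligand of the β-catenin branch, measured 22.2 and 22.6 RPKM in subconfluent cells, 25.8 and 28.0 at confluence, 40.5 and 37.2 at 24 h, 42.6 and 43.3 at 14 d, and 29.8 and 29.8 at 21 d. It was the most abundant ligand per kilobase in every library, lowest in subconfluent cells and highest at 14 d. Wnt6, its neighbour in the genome, had 13.6 and 14.1 RPKM in subconfluent cells, 19.1 and 19.9 at confluence, 35.1 and 29.3 at 24 h, 31.3 and 33.0 at 14 d, and 19.9 and 22.6 at 21 d. Wnt10b, which raises bone mass when overexpressed in mice, had 11.7 and 11.5 RPKM in subconfluent cells, 15.2 and 16.8 at confluence, 13.3 and 20.9 at 24 h, 24.6 and 27.2 at 14 d, and 19.6 and 18.3 at 21 d. All libraries at 24 h and later lay above the subconfluent ones for these 3 genes, although Wnt10b in 24 h replicate A lay under both confluent libraries.

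None of these 3 genes was called in the 6 comparisons made, which do not include 24 h or 14 d against subconfluent cells. On the RPKM scale the highest stage mean was 1.92, 2.32 and 2.24 times the lowest, that of subconfluent cells, for Wnt10a, Wnt6 and Wnt10b. These ratios are not folds on the scale of the tests. There the log2 fold changes at confluence against subconfluent cells were 0.24 ± 0.095, 0.47 ± 0.13 and 0.44 ± 0.17 (SE). At 14 d against confluent cells the log2 fold changes were 0.89 ± 0.10 (edgeR adjusted p = 0.000634) for Wnt10a, 0.94 ± 0.13 (edgeR adjusted p = 0.00193) for Wnt6 and 0.91 ± 0.17 (edgeR adjusted p = 0.00689) for Wnt10b. Within a library set, Wnt10a and Wnt6 were higher at 24 h than at confluence by 0.62 ± 0.10 (edgeR adjusted p = 0.0142) and 0.82 ± 0.13 (edgeR adjusted p = 0.0165), and lower at 21 d than at 14 d, with log2 fold changes of -0.60 ± 0.10 (edgeR adjusted p = 0.00814) and -0.67 ± 0.13 (edgeR adjusted p = 0.0197). For Wnt10b these values were 0.17 ± 0.17 (edgeR adjusted p = 0.582) and -0.53 ± 0.17 (edgeR adjusted p = 0.111).

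Wnt11, a ligand known for β-catenin-independent signalling, rose most among the ligands with counts above the floor in every stage. It measured 0.0523 and 0.0915 RPKM in subconfluent cells, 0.142 and 0.139 at confluence, 0.514 and 0.485 at 24 h, 4.42 and 4.89 at 14 d, and 2.88 and 2.74 at 21 d. The 5 stages did not overlap, with the lowest levels in subconfluent cells and the highest at 14 d. It rose by 3.78-fold in the first 24 h (log2 fold change 1.92 ± 0.23 (SE), edgeR adjusted p = 0.00575) and by 38.4-fold from confluence to 14 d (log2 fold change 5.26 ± 0.25 (SE), edgeR adjusted p = 2.58e-05). From 14 d to 21 d its log2 fold change of -0.80 ± 0.21 (edgeR adjusted p = 0.0540) did not pass. The call at 24 h was lost without confluent replicate A or B, with adjusted p-values of 0.0560 to 0.0636 by edgeR.

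Wnt9a and Wnt5a stood out in the last week. Wnt9a had 2.08 and 2.07 RPKM in subconfluent cells, 1.89 and 2.20 at confluence, 1.04 and 1.29 at 24 h, 2.04 and 2.10 at 14 d, and 6.67 and 6.70 at 21 d. Its 21 d libraries lay above all 8 others, and both 24 h libraries lay below all others. Wnt9a rose by 3.07-fold from 14 d to 21 d, within 1 library set (log2 fold change 1.62 ± 0.13 (SE), edgeR adjusted p = 0.000605), and by 3.50-fold from subconfluent cells to 21 d. Wnt5a, the main ligand of the receptor kinases Ror1 and Ror2, measured 1.63 and 1.39 RPKM in subconfluent cells, 1.70 and 1.67 at confluence, 0.918 and 1.48 at 24 h, 1.14 and 1.02 at 14 d, and 2.72 and 2.84 at 21 d. It too was highest in both 21 d libraries, and it rose by 2.46-fold from 14 d (log2 fold change 1.296 ± 0.19 (SE), edgeR adjusted p = 0.00625). Without 14 d replicate A or B the call of Wnt5a was lost, with edgeR adjusted p-values of 0.0514 to 0.0706.

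Of the remaining ligands above 1 RPKM, Wnt4 had 1.46 and 1.57 RPKM in subconfluent cells, 1.73 and 1.97 at confluence, 3.05 and 2.41 at 24 h, 3.99 and 4.34 at 14 d, and 3.36 and 3.69 at 21 d. Every 14 d and 21 d library lay above every early one, and Wnt4 rose by 2.62-fold from confluence to 14 d (log2 fold change 1.39 ± 0.17 (SE), edgeR adjusted p = 0.00110). Wnt5b, a relative of Wnt5a, measured 5.16 and 5.68 RPKM in subconfluent cells, 5.69 and 6.84 at confluence, 6.10 and 5.47 at 24 h, 6.28 and 6.39 at 14 d, and 4.66 and 5.56 at 21 d. Its stages overlapped in part, with both 14 d libraries above both 21 d ones, and no difference over the 5 stages passed the F test (edgeR adjusted p = 0.199). The summed ligand RPKM was 58.6 ± 0.744 in subconfluent cells, 74.6 ± 4.37 at confluence, 99.7 ± 1.38 at 24 h, 119.7 ± 4.04 at 14 d, 91.2 ± 1.82 at 21 d (mean ± SD, n = 2 each), highest at 14 d. At 14 d it was 2.04 times the subconfluent sum by RPKM and 2.33 times with TMM library sizes.

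Of the 10 Frizzleds, 8 reached 1 RPKM and Fzd3 and Fzd10 had 0 counts in all libraries. These receptors cross the membrane and bind the Wnt lipid on the outside. Fzd9, which mouse osteoblasts need for full bone formation, changed most in this class and had 1.44 and 1.38 RPKM in subconfluent cells, 4.59 and 4.93 at confluence, 11.6 and 10.7 at 24 h, 10.2 and 11.1 at 14 d, and 10.9 and 11.6 at 21 d. It was lowest in subconfluent and intermediate in confluent cells, and the 24 h, 14 d and 21 d libraries overlapped. Fzd9 rose by 3.31-fold at confluence (log2 fold change 1.73 ± 0.12 (SE), edgeR adjusted p = 0.000896) and by 2.49-fold in the first 24 h (log2 fold change 1.32 ± 0.11 (SE), edgeR adjusted p = 0.00182). From 14 d to 21 d its log2 fold change was 0.00 ± 0.11 (SE).

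Fzd8 and Fzd7 were higher late in culture. Fzd8 measured 6.82 and 7.04 RPKM in subconfluent cells, 7.52 and 7.77 at confluence, 9.52 and 12.7 at 24 h, 17.1 and 18.6 at 14 d, and 22.4 and 20.5 at 21 d. The 5 stages did not overlap, and each lay above the one before. Fzd8 rose by 2.71-fold from confluence to 14 d (log2 fold change 1.44 ± 0.12 (SE), edgeR adjusted p = 0.000231). Fzd7 had 12.2 and 12.4 RPKM in subconfluent cells, 13.4 and 11.99 at confluence, 11.7 and 16.3 at 24 h, 20.3 and 19.4 at 14 d, and 28.4 and 26.8 at 21 d. Its 21 d libraries were the highest and its 3 early stages overlapped, and it rose by 2.44-fold from subconfluent cells to 21 d (log2 fold change 1.29 ± 0.13 (SE), edgeR adjusted p = 0.000158). By RPKM it passed Fzd1 to become the most abundant Frizzled at 21 d.

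Fzd5 and Fzd4 rose between the early and late stages. Fzd5 had 6.20 and 6.25 RPKM in subconfluent cells, 5.97 and 5.37 at confluence, 4.76 and 6.92 at 24 h, 12.3 and 13.0 at 14 d, and 12.3 and 11.03 at 21 d, and all 4 late libraries lay above all 6 early ones. It rose by 2.59-fold from confluence to 14 d (log2 fold change 1.37 ± 0.15 (SE), edgeR adjusted p = 0.000656). At 21 d against subconfluent cells it rose by 2.03-fold, a call that fell under 2-fold without subconfluent replicate B or 21 d replicate A, with log2 fold changes of 0.94 to 0.99. It was also lost with DESeq2, with its size factors in edgeR and in both limma-trend fits. Fzd4, which also binds the ligand Norrin, measured 0.543 and 0.517 RPKM in subconfluent cells, 0.463 and 0.400 at confluence, 0.265 and 0.715 at 24 h, 1.35 and 1.26 at 14 d, and 1.75 and 1.36 at 21 d. Its late libraries lay above all early ones, and at 14 d against confluent cells its log2 fold change was 1.81 ± 0.39 (edgeR adjusted p = 0.0117). That call was lost without confluent or 14 d replicate A or B, with edgeR adjusted p-values of 0.0509 to 0.0795. Its rise at 21 d against subconfluent cells, 1.66 ± 0.39 (edgeR adjusted p = 0.00982), was lost without either subconfluent replicate or 21 d replicate A, with adjusted p-values of 0.0532 to 0.0583. Its rise from 24 h to 14 d, 1.56 ± 0.39 (edgeR adjusted p = 0.0339), was lost with the replicate block, in a fit of the 2 stages alone, by limma-trend on log2(RPKM + 1), and without any 1 of the 8 libraries other than those of 24 h, with adjusted p-values of 0.0618 to 0.138. Without 24 h replicate B that log2 fold change was 2.32.

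Fzd1, Fzd2 and Fzd6 differed by less than 2-fold in every comparison. Fzd1 had 26.0 and 26.9 RPKM in subconfluent cells, 23.3 and 19.6 at confluence, 18.2 and 24.6 at 24 h, 28.0 and 28.8 at 14 d, and 22.9 and 23.5 at 21 d. Fzd2 had 22.2 and 24.8 RPKM in subconfluent cells, 26.5 and 24.9 at confluence, 21.4 and 23.2 at 24 h, 21.5 and 21.4 at 14 d, and 20.3 and 21.1 at 21 d. Fzd6, known for its part in planar polarity of skin and hair, had 4.76 and 4.58 RPKM in subconfluent cells, 4.06 and 3.45 at confluence, 2.27 and 3.48 at 24 h, 3.18 and 3.17 at 14 d, and 2.57 and 2.62 at 21 d. Fzd1 and Fzd2 were the most abundant Frizzleds in the early stages, each at 18.2 RPKM or more in every library. Only Fzd6 among these 3 passed the test between subconfluent cells and 21 d, where its log2 fold change was -0.73 ± 0.17 (edgeR adjusted p = 0.00947).

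The coreceptors showed a single called gene, Lrp5. Lrp5 measured 11.7 and 12.4 RPKM in subconfluent cells, 14.3 and 12.6 at confluence, 15.9 and 29.0 at 24 h, 50.2 and 48.5 at 14 d, and 60.0 and 56.4 at 21 d. All 4 late libraries lay above all early ones, and 24 h replicate B was well above replicate A. Lrp5 rose by 4.26-fold from confluence to 14 d (log2 fold change 2.09 ± 0.23 (SE), edgeR adjusted p = 0.000694) and by 5.24-fold from subconfluent cells to 21 d (log2 fold change 2.39 ± 0.23 (SE), edgeR adjusted p = 0.000138). From 24 h to 14 d it rose by 2.43-fold, a call lost without 24 h replicate A, 14 d replicate A or 14 d replicate B, where the log2 fold change ranged from 0.94 to 1.28. Within the library sets its log2 fold changes were 0.13 ± 0.22 (edgeR adjusted p = 0.846) at confluence, 0.81 ± 0.22 (edgeR adjusted p = 0.0871) at 24 h and 0.16 ± 0.22 (edgeR adjusted p = 0.758) from 14 d to 21 d.

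Lrp6, which shares the coreceptor role with Lrp5, had 14.9 and 14.6 RPKM in subconfluent cells, 15.1 and 12.8 at confluence, 7.82 and 13.5 at 24 h, 12.7 and 12.1 at 14 d, and 12.9 and 12.3 at 21 d. Both subconfluent libraries lay above all 4 late ones, the 24 h replicates lay far apart, and the F test over the stages gave an edgeR adjusted p of 0.447. In subconfluent cells Lrp6 was above Lrp5 per kilobase in both libraries, and at 14 d and 21 d Lrp5 was above Lrp6 in all 4. Lrp5 thus went from 14.5% of the summed coreceptor RPKM in subconfluent cells to 47.4% at 21 d. Ryk, an atypical kinase receptor for Wnt, was the most abundant of the class early on with 39.1 and 38.9 RPKM in subconfluent cells, 40.4 and 43.5 at confluence, 38.2 and 34.1 at 24 h, 29.9 and 29.7 at 14 d, and 33.4 and 36.1 at 21 d. It lay lowest at 14 d, and no difference over the stages passed (edgeR adjusted p = 0.310).

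The receptor kinase Ror2 had 10.1 and 9.59 RPKM in subconfluent cells, 14.2 and 13.5 at confluence, 13.5 and 17.2 at 24 h, 12.2 and 12.1 at 14 d, and 9.22 and 8.45 at 21 d. Its confluent and 24 h libraries lay above all others, and at 21 d it was lower than at 14 d by less than 2-fold, with a log2 fold change of -0.53 ± 0.10 (edgeR adjusted p = 0.0171). Ror1 measured 1.86 and 1.95 RPKM in subconfluent cells, 2.37 and 2.06 at confluence, 1.94 and 3.58 at 24 h, 2.28 and 2.26 at 14 d, and 2.42 and 2.44 at 21 d and its stages partly overlapped (edgeR adjusted p over the stages = 0.243). Lrp4, which binds sclerostin in bone and agrin at the nerve-muscle contact, had 5.96 and 5.24 RPKM in subconfluent cells, 8.67 and 7.52 at confluence, 5.09 and 11.5 at 24 h, 11.7 and 11.7 at 14 d, and 6.24 and 5.45 at 21 d. The 24 h replicates of Lrp4 differed by more than 2-fold and spanned all other values but those of 14 d. Its 21 d libraries were below both 14 d libraries, with a log2 fold change of -1.08 ± 0.30 (edgeR adjusted p = 0.0691) that did not pass.

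**Figure D2:**
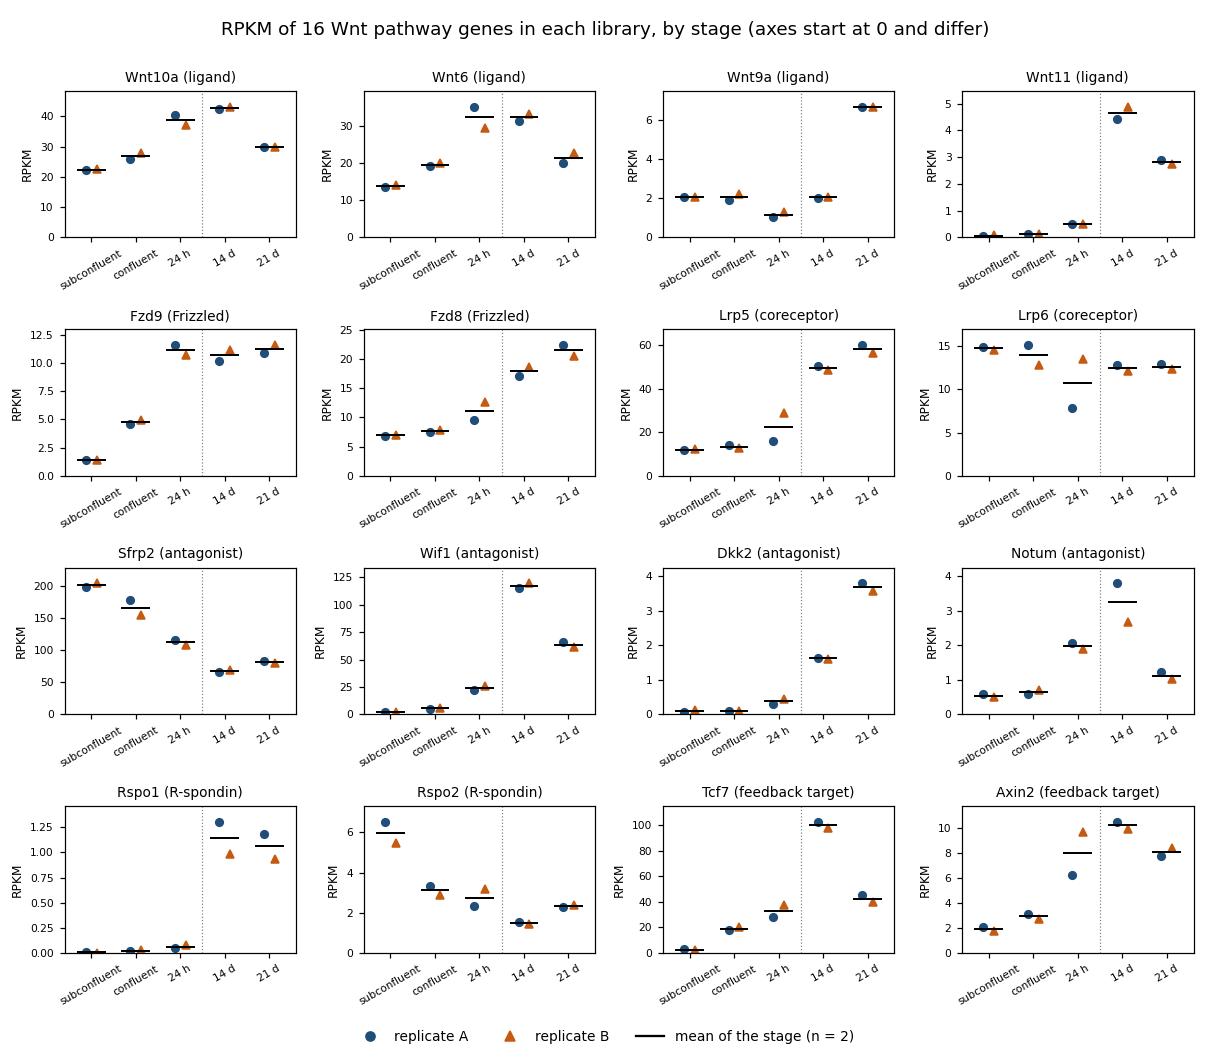
RPKM of 16 members (1 panel each, vertical axis in RPKM from 0) in each library of the 5 stages (horizontal axis), circles for replicate A, triangles for replicate B and bars for the mean, with a dotted line between the index pairs. Wnt9a reaches 6.67 and 6.70 RPKM only at 21 d, Lrp5 lies at 48.5 RPKM or more in all late libraries, and Tcf7 peaks at 14 d, at 103 RPKM in replicate A.

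The secreted antagonists changed in makeup more than in sum. Sfrp2, a soluble relative of the Frizzleds that binds Wnt ligands, was the most abundant member of all in the early stages. It measured 199 and 204 RPKM in subconfluent cells, 177 and 155 at confluence, 116 and 108 at 24 h, 66.5 and 68.4 at 14 d, and 82.7 and 79.9 at 21 d. The subconfluent libraries were the highest, the 14 d libraries the lowest, and no stages overlapped. Sfrp2 fell by 2.12-fold from confluence to 14 d (log2 fold change -1.08 ± 0.11 (SE), edgeR adjusted p = 0.000430) and by 2.29-fold from subconfluent cells to 21 d (log2 fold change -1.19 ± 0.11 (SE), edgeR adjusted p = 9.35e-05). Without confluent replicate A the first of these stayed under 2-fold, at a log2 fold change of -0.99. Within the library sets Sfrp2 differed by less than 2-fold, with log2 fold changes of -0.30 ± 0.11 (edgeR adjusted p = 0.196), -0.48 ± 0.11 (edgeR adjusted p = 0.0491) and 0.19 ± 0.11 (edgeR adjusted p = 0.329) at confluence, 24 h and 21 d.

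Wif1, which binds Wnt ligands outside the cell, moved the other way. It had 2.32 and 2.35 RPKM in subconfluent cells, 4.92 and 5.91 at confluence, 22.6 and 26.3 at 24 h, 116 and 119.6 at 14 d, and 65.8 and 61.5 at 21 d. Each stage up to 14 d lay wholly above the one before, and the 21 d libraries lay between those of 24 h and 14 d. Wif1 rose by 2.28-fold at confluence (log2 fold change 1.19 ± 0.11 (SE), edgeR adjusted p = 0.00264), by 4.78-fold in the first 24 h (log2 fold change 2.26 ± 0.11 (SE), edgeR adjusted p = 0.000394) and by 25.2-fold from confluence to 14 d (log2 fold change 4.65 ± 0.12 (SE), edgeR adjusted p = 5.05e-06). From 14 d to 21 d it was lower by less than 2-fold, with a log2 fold change of -0.96 ± 0.11 (edgeR adjusted p = 0.00188).

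Dkk3, a divergent member of the Dickkopf family, measured 99.6 and 99.4 RPKM in subconfluent cells, 80.6 and 74.2 at confluence, 54.6 and 65.7 at 24 h, 47.7 and 50.0 at 14 d, and 62.8 and 65.8 at 21 d. It was highest in subconfluent cells and lowest at 14 d, 2 stages that were not tested against each other. Their mean RPKM stood 2.04-fold apart. On the scale of the tests the log2 fold changes were -0.39 ± 0.10 at confluence, -0.28 ± 0.10 at 24 h and -0.17 ± 0.10 from 24 h to 14 d. These steps add up to less than 2-fold. In the comparisons made Dkk3 was not called, with a log2 fold change of -0.51 ± 0.10 (edgeR adjusted p = 0.00350) at 21 d against subconfluent cells. Sfrp2 and Dkk3 together made up 99.0% of the summed antagonist RPKM in subconfluent cells, 48.6% at 14 d and 67.9% at 21 d. The share of Wif1 was 0.767%, 49.1% and 29.7%. The sum itself was 304 ± 3.43 in subconfluent cells, 250 ± 19.3 at confluence, 199 ± 5.18 at 24 h, 239 ± 5.07 at 14 d, 214 ± 3.08 at 21 d (mean RPKM ± SD, n = 2 each). At 14 d it was 0.787 times the subconfluent sum by RPKM and 0.898 times with TMM library sizes.

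**Figure D3:**
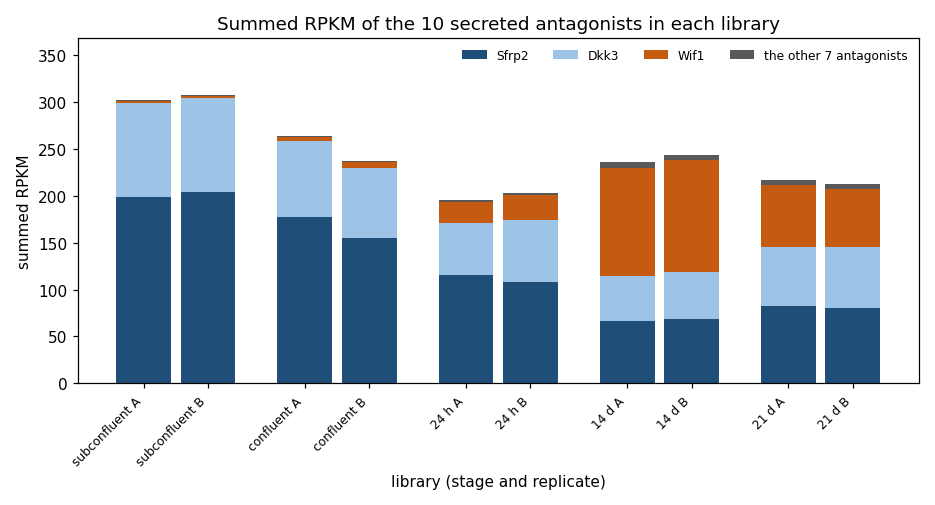
Stacked bars of the RPKM of the 10 secreted antagonists (vertical axis, from 0) in each of the 10 libraries (horizontal axis), with Sfrp2, Dkk3, Wif1 and the other 7 in separate colours. Wif1 grows from 2.32 and 2.35 RPKM in subconfluent cells to 116 and 119.6 at 14 d, while Sfrp2 goes from 199 and 204 to 66.5 and 68.4.

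Dkk2, which binds Lrp5 and Lrp6, rose in steps. It measured 0.0763 and 0.114 RPKM in subconfluent cells, 0.0956 and 0.105 at confluence, 0.306 and 0.453 at 24 h, 1.64 and 1.61 at 14 d, and 3.79 and 3.56 at 21 d. Subconfluent and confluent libraries overlapped, and each later stage lay above the one before. It rose by 3.94-fold in the first 24 h (log2 fold change 1.98 ± 0.24 (SE), edgeR adjusted p = 0.00591), by 18.5-fold from confluence to 14 d (log2 fold change 4.21 ± 0.25 (SE), edgeR adjusted p = 5.88e-05) and by 2.15-fold from 14 d to 21 d (log2 fold change 1.10 ± 0.21 (SE), edgeR adjusted p = 0.0190). The 24 h call was lost without confluent replicate A or B (edgeR adjusted p = 0.0581 to 0.0582). The 21 d call was lost without any 1 of the 14 d and 21 d libraries (edgeR adjusted p = 0.0997 to 0.140).

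Notum, an enzyme that cuts the lipid off Wnt ligands, rose and then fell. It had 0.589 and 0.502 RPKM in subconfluent cells, 0.575 and 0.706 at confluence, 2.07 and 1.89 at 24 h, 3.80 and 2.69 at 14 d, and 1.22 and 1.02 at 21 d. Levels were low and overlapping in subconfluent and confluent cells and highest at 14 d, where the replicates differed most. It rose by 3.27-fold in the first 24 h (log2 fold change 1.71 ± 0.23 (SE), edgeR adjusted p = 0.00871) and by 5.84-fold from confluence to 14 d (log2 fold change 2.55 ± 0.24 (SE), edgeR adjusted p = 0.000346), and fell by 3.06-fold from 14 d to 21 d (log2 fold change -1.61 ± 0.23 (SE), edgeR adjusted p = 0.00502). The 24 h call was lost without confluent replicate A or B (edgeR adjusted p = 0.0568 to 0.0796) and the 21 d call without 21 d replicate B (0.0554). At 21 d against subconfluent cells it rose by 2.20-fold, a call lost without subconfluent replicate B, where the log2 fold change was 0.99.

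The R-spondins bind Lgr receptors and keep Frizzleds on the cell surface. Rspo2 had 6.53 and 5.46 RPKM in subconfluent cells, 3.32 and 2.90 at confluence, 2.31 and 3.17 at 24 h, 1.53 and 1.44 at 14 d, and 2.30 and 2.37 at 21 d. The subconfluent libraries were the highest and the 14 d libraries the lowest. Rspo2 fell by 2.37-fold from subconfluent cells to 21 d (log2 fold change -1.24 ± 0.16 (SE), edgeR adjusted p = 0.000528), and at confluence it was lower by less than 2-fold, with a log2 fold change of -0.97 ± 0.16 (edgeR adjusted p = 0.0232). Rspo1 measured 0.00502 and 0 RPKM in subconfluent cells, 0.0152 and 0.0240 at confluence, 0.0426 and 0.0786 at 24 h, 1.31 and 0.988 at 14 d, and 1.18 and 0.938 at 21 d. It had 1 count over both subconfluent libraries and 225 at 21 d, a ratio per library size of 285 (95% exact counting interval 50.6 to 11291). All late libraries lay above all early ones, and Rspo1 rose by 20.6-fold from 24 h to 14 d (log2 fold change 4.36 ± 0.42 (SE), edgeR adjusted p = 0.00101). Its call at 21 d against subconfluent cells held without each library, but the fitted value moved to a log2 fold change of 10.06 without subconfluent replicate A. By RPKM Rspo2 stayed above Rspo1 in every library.

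The summed RPKM of the feedback targets was higher at each stage up to 14 d, and Tcf7 made up most of it from confluence on. Tcf7, a DNA-binding partner of β-catenin, measured 2.75 and 2.07 RPKM in subconfluent cells, 18.0 and 20.0 at confluence, 28.3 and 37.6 at 24 h, 103 and 97.99 at 14 d, and 45.1 and 39.6 at 21 d. No stages overlapped, with subconfluent cells lowest and 14 d highest. Within the library sets it rose by 7.69-fold at confluence (log2 fold change 2.94 ± 0.17 (SE), edgeR adjusted p = 0.000540) and fell by 2.496-fold from 14 d to 21 d (log2 fold change -1.32 ± 0.16 (SE), edgeR adjusted p = 0.00260). In the first 24 h it differed by less than 2-fold, with a log2 fold change of 0.88 ± 0.16 (edgeR adjusted p = 0.0249). Across the sets it rose by 6.14-fold from confluence to 14 d (log2 fold change 2.62 ± 0.17 (SE), edgeR adjusted p = 7.68e-05).

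Axin2, a scaffold of the complex that destroys β-catenin, had 2.02 and 1.77 RPKM in subconfluent cells, 3.13 and 2.74 at confluence, 6.21 and 9.68 at 24 h, 10.5 and 9.92 at 14 d, and 7.73 and 8.34 at 21 d. All libraries from 24 h on lay above all subconfluent and confluent ones. It rose by 2.87-fold in the first 24 h (log2 fold change 1.52 ± 0.18 (SE), edgeR adjusted p = 0.00546) and by 4.04-fold from confluence to 14 d (log2 fold change 2.01 ± 0.18 (SE), edgeR adjusted p = 0.000310), and at 21 d against 14 d its log2 fold change was -0.42 ± 0.17 (edgeR adjusted p = 0.200). Without confluent replicate A or B the 24 h call was lost (edgeR adjusted p = 0.0504 to 0.0596). Lef1, the other DNA-binding partner of β-catenin in the class, measured 1.06 and 0.933 RPKM in subconfluent cells, 0.762 and 0.825 at confluence, 1.43 and 1.60 at 24 h, 1.24 and 1.003 at 14 d, and 1.03 and 1.09 at 21 d. Both 24 h libraries were the highest of the 10. Lef1 rose by 2.02-fold in the first 24 h (log2 fold change 1.02 ± 0.13 (SE), edgeR adjusted p = 0.00836), and that call was lost without confluent replicate A or B (edgeR adjusted p = 0.0596 to 0.0782).

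Rnf43 and Znrf3 are related ubiquitin ligases that take Frizzleds off the cell surface, and they differed in course. Rnf43 had 0.795 and 0.693 RPKM in subconfluent cells, 2.51 and 2.65 at confluence, 3.84 and 5.13 at 24 h, 6.48 and 6.45 at 14 d, and 4.21 and 3.73 at 21 d. No stages overlapped for Rnf43 except 24 h and 21 d, and 14 d was highest. It rose by 3.39-fold at confluence (log2 fold change 1.76 ± 0.14 (SE), edgeR adjusted p = 0.00143) and by 2.91-fold from confluence to 14 d (log2 fold change 1.54 ± 0.13 (SE), edgeR adjusted p = 0.000256), and was lower at 21 d than at 14 d by less than 2-fold, with -0.78 ± 0.13 (edgeR adjusted p = 0.0102). Znrf3 measured 1.98 and 2.07 RPKM in subconfluent cells, 1.76 and 1.80 at confluence, 1.05 and 1.75 at 24 h, 1.52 and 1.31 at 14 d, and 1.21 and 1.15 at 21 d. Its subconfluent libraries were the highest, and at 21 d against subconfluent cells its log2 fold change was -0.66 ± 0.20 (edgeR adjusted p = 0.0255), less than 2-fold.

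Nkd2, which binds the signal transducer Dishevelled, had 0.00206 and 0.00684 RPKM in subconfluent cells, 0.0686 and 0.1001 at confluence, 0.808 and 0.982 at 24 h, 0.808 and 0.719 at 14 d, and 0.236 and 0.201 at 21 d. It was almost absent in subconfluent cells and highest at 24 h and 14 d. From subconfluent to confluent cells the counts went from 2 to 62, a ratio of 28.8 (95% exact counting interval 7.64 to 243) that passed the test (edgeR adjusted p = 0.00310). The fitted log2 fold change without subconfluent replicate A was 3.56 (edgeR adjusted p = 0.0539), which ended the call, and without replicate B 5.11. Nkd2 rose by 10.97-fold in the first 24 h (log2 fold change 3.46 ± 0.31 (SE), edgeR adjusted p = 0.00215) and fell by 3.68-fold from 14 d to 21 d (log2 fold change -1.88 ± 0.29 (SE), edgeR adjusted p = 0.00709). The fall was lost without 14 d replicate A or either 21 d replicate (edgeR adjusted p = 0.0564 to 0.0766). At 21 d against subconfluent cells the counts were 115 and 2, a ratio of 72.7 (95% exact counting interval 19.7 to 608), and the fitted log2 fold change without subconfluent replicate A was 5.01.

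The summed RPKM of the 7 feedback targets was 8.07 ± 0.751 in subconfluent cells, 27.2 ± 1.31 at confluence, 49.3 ± 10.7 at 24 h, 120.4 ± 4.21 at 14 d, 56.8 ± 3.83 at 21 d (mean ± SD, n = 2 each). It was highest at 14 d, and the 21 d libraries, at 59.6 and 54.1 RPKM, lay on either side of 24 h replicate B at 56.8 RPKM. The Frizzled sum was 82.0 ± 2.70 in subconfluent cells, 82.1 ± 5.32 at confluence, 89.1 ± 13.3 at 24 h, 115 ± 1.90 at 14 d, 120.0 ± 2.16 at 21 d, and the coreceptor sum 83.1 ± 0.725 in subconfluent cells, 93.5 ± 2.24 at confluence, 95.6 ± 18.7 at 24 h, 118 ± 1.95 at 14 d, 123 ± 2.19 at 21 d. For both, by RPKM, the late libraries lay above all early ones. Against subconfluent cells the Frizzled sum was 1.41 times at 14 d and 1.46 times at 21 d by RPKM. With TMM library sizes in place of RPKM these ratios were 1.61 and 1.59. For the coreceptors they were 1.42 and 1.48 by RPKM, and 1.616 and 1.600 with TMM library sizes. The order of 14 d and 21 d thus depends on the scaling.

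Some members under 1 RPKM were called on few counts. Wnt7b, a relative of Wnt7a, had 0.00245 and 0 RPKM in subconfluent cells, 0.0371 and 0.0327 at confluence, 0.0475 and 0.0223 at 24 h, 0.308 and 0.176 at 14 d, and 0.0720 and 0.0725 at 21 d. Subconfluent libraries were the lowest and 14 d libraries the highest. Its counts were 1 in subconfluent and 19 in confluent cells, a ratio of 17.6 (95% exact counting interval 2.80 to 733), and 33 at 21 d, a ratio to subconfluent cells of 41.7 (95% exact counting interval 6.99 to 1698). Wnt7b passed in both comparisons (edgeR adjusted p = 0.0490 and 0.00122), and it rose by 8.09-fold from confluence to 14 d (log2 fold change 3.02 ± 0.54 (SE), edgeR adjusted p = 0.00545). The confluent call was lost with DESeq2, with no filter, with the replicate block, in both limma-trend fits, and without any 1 of the 8 libraries other than those of 24 h (edgeR adjusted p = 0.0914 to 0.245). The 14 d call against confluence was lost without confluent replicate B (0.0517), and that from 24 h to 14 d, at 2.89 ± 0.53 (edgeR adjusted p = 0.0119), without 14 d replicate A (0.0897). Fitted log2 fold changes moved to 6.07 and 7.24 at confluence and at 21 d without subconfluent replicate A, and to 3.59 from 24 h to 14 d without 24 h replicate A.

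Frzb, a soluble Frizzled relative first found in cartilage, had 0.0391 and 0.0200 RPKM in subconfluent cells, 0.146 and 0.175 at confluence, 0.0947 and 0.0509 at 24 h, 0.385 and 0.488 at 14 d, and 0.159 and 0.178 at 21 d. Its 14 d libraries were the highest and its subconfluent libraries the lowest. It rose by 5.68-fold from subconfluent cells to 21 d (log2 fold change 2.51 ± 0.46 (SE), edgeR adjusted p = 0.00333), or by a log2 fold change of 3.14 without subconfluent replicate A. The rise at confluence, 2.30 ± 0.46 (edgeR adjusted p = 0.0465), was lost with no filter, with the replicate block, in a fit of the 2 stages alone, by limma-trend on log2(RPKM + 1), and without any 1 of the 8 libraries other than those of 24 h (edgeR adjusted p = 0.102 to 0.266), and was 2.96 on the log2 scale without subconfluent replicate A. The rise from confluence to 14 d, 1.65 ± 0.42 (edgeR adjusted p = 0.0214), was lost without any 1 of the confluent and 14 d libraries (0.0617 to 0.120). The rise from 24 h to 14 d, 2.68 ± 0.43 (edgeR adjusted p = 0.00781), was lost without 14 d replicate B (0.0585).

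Dkk1, an Lrp5 and Lrp6 antagonist, measured 0.00801 and 0.0133 RPKM in subconfluent cells, 0 and 0.0115 at confluence, 0.0243 and 0.00522 at 24 h, 0.0780 and 0.125 at 14 d, and 0.0118 and 0.0258 at 21 d. Its 14 d libraries were the highest. With 17 and 10 counts there and at most 5 in any other library, Dkk1 entered the test only through that stage. Over both replicates it had 3 counts at confluence and 27 at 14 d. This ratio of 11.98 (95% exact counting interval 3.69 to 61.7) was called (edgeR adjusted p = 0.0235), which is no separate support for the rise. The call was lost without any 1 of these 4 libraries (edgeR adjusted p = 0.0573 to 0.102), and without confluent replicate B the fitted log2 fold change was 7.05. Wnt1, mutated in a form of brittle bone disease, had 0.0777 and 0.0544 RPKM in subconfluent cells, 0.124 and 0.0780 at confluence, 0.0545 and 0.0533 at 24 h, 0.00468 and 0 at 14 d, and 0 and 0.0211 at 21 d. Confluent libraries were the highest and all late ones lay below all early ones. It had 30 counts at confluence and 1 at 14 d, lower by a ratio of 22.5 (95% exact counting interval 3.75 to 919) (edgeR adjusted p = 0.0161). That call was lost without confluent replicate A or either 14 d replicate (0.0651 to 0.0814), and without 14 d replicate A the fitted log2 fold change was -6.88.

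Wnt2b had 0.109 and 0.127 RPKM in subconfluent cells, 0.0412 and 0.0727 at confluence, 0.0495 and 0.0816 at 24 h, 0.190 and 0.0934 at 14 d, and 0.136 and 0.126 at 21 d. Its stages overlapped in part, and its rise from confluence to 14 d, 1.49 ± 0.46 (edgeR adjusted p = 0.0452), was lost with DESeq2, with no filter, with the replicate block, in a fit of the 2 stages alone, in both limma-trend fits, and without any 1 of 7 libraries, all but the 24 h pair and 14 d replicate B (edgeR adjusted p = 0.0784 to 0.324). Without 14 d replicate A its log2 fold change was 0.89. Rspo3 measured 0.0610 and 0.0810 RPKM in subconfluent cells, 0.0492 and 0.0504 at confluence, 0.0246 and 0.0159 at 24 h, 0.0140 and 0.0254 at 14 d, and 0.0120 and 0 at 21 d. Its subconfluent libraries were the highest, with 21 counts in subconfluent cells and 1 at 21 d, lower by a ratio of 16.6 (95% exact counting interval 2.67 to 687) (edgeR adjusted p = 0.0170). Relative to depth Rspo3 had enough counts for the test only in the subconfluent pair, so this call is no separate support for the fall. The call was lost without either subconfluent replicate or 21 d replicate B (0.0532 to 0.102), and the fitted log2 fold change was -6.53 without 21 d replicate A and -2.36 without replicate B. Nkd1, a relative of Nkd2, had 0.00218 and 0 RPKM in subconfluent cells, 0.00661 and 0.0167 at confluence, 0.0529 and 0.0228 at 24 h, 0.0225 and 0.0136 at 14 d, and 0.0321 and 0.0169 at 21 d. Its subconfluent libraries were the lowest and the 24 h libraries lay above those of confluence and 14 d. It had 1 count in subconfluent cells and 11 at 21 d, a ratio of 13.9 (95% exact counting interval 2.02 to 599) (edgeR adjusted p = 0.0210). That call was lost with DESeq2, in both limma-trend fits, and without either subconfluent replicate or 21 d replicate A (0.0783 to 0.0856), and without subconfluent replicate A the fitted log2 fold change was 5.79. These intervals cover counting error only.

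The other 12 members could not be tested. Wnt2, Wnt3a, Wnt7a, Fzd3 and Fzd10 had 0 counts in all 10 libraries. Wnt3, Wnt8a, Wnt9b and Wnt16 had at most 3 counts in any library, and Sfrp1, Sfrp4 and Sfrp5 at most 8, with no value above 0.0527 RPKM. At a floor of 3 counts in a library the levels that would go undetected were 0.00615 RPKM at the lowest, for Wnt9b, and 0.0877 RPKM at the highest, for Wnt7a. Any RNA of these genes was thus not detectable at this depth or lay near that limit.

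Several ligand genes are neighbours in the genome. In GENCODE vM21 on GRCm38, Wnt6 (chr1:74771892-74785322) and Wnt10a (chr1:74791516-74804179) lie 6193 bases apart on the plus strand, and both were abundant. Wnt1 (chr15:98789857-98793837, plus strand) and Wnt10b (chr15:98770712-98778150, minus strand) lie 11706 bases apart. Wnt10b stayed at 11.5 RPKM or more and Wnt1 at 0.124 RPKM or less. Wnt3a and Wnt9a on chromosome 11 are 16175 bases apart, with 0 counts for Wnt3a. Wnt3 and Wnt9b, 24328 bases apart on the same chromosome, were both at or near 0. No protein-coding gene lies between the genes of these 4 pairs.

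Whether the counting used strand is not given in the sources used here, and 10 members share exon bases with a gene on the opposite strand. Reads from both could not be told apart if strand was not used. Notum shares the most by share of its exons, 708 bases or 29.4% with Notumos, for which the mean count was 64.8 beside 209.7 for Notum. Sfrp2 shares 347 bases with Gm26771, at a mean count of 584 beside 16325 for Sfrp2. The other members with an opposite partner were Wnt5a, Wnt7b, Wnt11, Fzd5, Fzd6, Rspo3, Axin2 and Lef1.

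Since the feedback targets are known to answer to β-catenin, their promoters were searched for letters of the TCF/LEF core. RefSeq promoters, 250 bases before to 50 after the start on build GRCm38.p6, were found for 6 of the 7 genes, 11 in all. The letters CTTTG followed by AA, AT, TA or TT were looked for on both strands. Of all 32851 promoters listed, 5.14%, 3.73%, 3.63% and 5.85% hold these words in that order, and 16.9% hold at least 1 of the 4. A match was found in 1 of the 11, at chr3:131156044-131156343 on the plus strand, shown because it is the only match. This window belongs to a transcript start inside the Lef1 gene (chr3:131110471-131224356), and the other 3 Lef1 promoters, 2 of them by the 5' end of the gene, held no match. The capitals mark CTTTGTA on the minus strand, 147 bases before that transcript start.
Lef1: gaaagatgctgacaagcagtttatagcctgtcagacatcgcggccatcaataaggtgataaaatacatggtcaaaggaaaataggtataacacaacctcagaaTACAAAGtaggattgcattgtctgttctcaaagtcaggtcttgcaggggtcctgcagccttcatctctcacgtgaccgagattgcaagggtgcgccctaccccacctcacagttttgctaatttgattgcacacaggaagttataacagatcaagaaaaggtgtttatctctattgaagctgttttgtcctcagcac
The match is a description of letters, and nothing outside these windows was searched.

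Of 65 listed pathway genes outside the members 57 were tested, and 20 of these differed over the 5 stages by the F test, beside 48.9% of all genes. Between subconfluent cells and 21 d 6 of the 57 rose and 3 fell, beside 16.3% and 11.3% of all genes, so both shares were under those of all genes. At 14 d against confluent cells 5 rose and 1 fell (9.15% and 3.85% of all genes), and from subconfluent to confluent cells 1 rose and 3 fell (1.0% and 0.423%). From 24 h to 14 d 4 rose and 1 fell (4.47% and 1.51%), and from 14 d to 21 d 2 rose and 1 fell (1.52% and 2.45%). In the first 24 h edgeR and DESeq2 each called 0 of them, and by edgeR 10 had an unadjusted p under 0.05.

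Ctnnb1, the gene for β-catenin, measured 126 and 124 RPKM in subconfluent cells, 167 and 159 at confluence, 221 and 289 at 24 h, 385 and 385 at 14 d, and 286 and 276 at 21 d. Each stage up to 14 d lay above the one before, and it rose by 2.74-fold from confluence to 14 d (log2 fold change 1.46 ± 0.12 (SE), edgeR adjusted p = 0.000191). Within the library sets its log2 fold changes were 0.35 ± 0.11 (edgeR adjusted p = 0.167), 0.73 ± 0.11 (edgeR adjusted p = 0.0154) and -0.53 ± 0.11 (edgeR adjusted p = 0.0289) at confluence, 24 h and 21 d. Porcn, the enzyme that attaches the lipid to Wnt ligands, had 4.40 and 3.33 RPKM in subconfluent cells, 6.47 and 7.12 at confluence, 11.5 and 11.3 at 24 h, 12.8 and 11.7 at 14 d, and 17.2 and 16.6 at 21 d. Subconfluent libraries were the lowest and 21 d libraries the highest, and it rose by 4.73-fold between them (log2 fold change 2.24 ± 0.14 (SE), edgeR adjusted p = 2.18e-05). Wls, which carries the ligands to the cell surface, had 45.04 and 44.3 RPKM in subconfluent cells, 41.6 and 39.4 at confluence, 36.6 and 44.0 at 24 h, 33.7 and 31.8 at 14 d, and 41.6 and 42.1 at 21 d. Its stages partly overlapped and its log2 fold change at 21 d against subconfluent cells was 0.02 ± 0.08 (SE). Sost, the gene of the osteocyte antagonist sclerostin, had 0 counts in 9 libraries and 2 in 21 d replicate B.

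Among the genes that passed at 21 d against subconfluent cells, Sostdc1, a relative of Sost, had 0.333 and 0.240 RPKM in subconfluent cells, 0.151 and 0.180 at confluence, 0.235 and 0.181 at 24 h, 4.30 and 4.35 at 14 d, and 4.79 and 4.62 at 21 d. All late libraries lay above all early ones (log2 fold change 4.12 ± 0.24 (SE), edgeR adjusted p = 1.63e-05). Reck, which takes part in Wnt7 reception, measured 5.01 and 4.20 RPKM in subconfluent cells, 6.13 and 5.50 at confluence, 4.73 and 8.21 at 24 h, 12.6 and 12.5 at 14 d, and 10.3 and 8.85 at 21 d and also lay higher in every late library (log2 fold change 1.17 ± 0.22 (SE), edgeR adjusted p = 0.00336). Prickle1, a planar polarity gene, had 2.65 and 2.31 RPKM in subconfluent cells, 6.85 and 6.06 at confluence, 6.33 and 8.53 at 24 h, 6.17 and 6.38 at 14 d, and 5.53 and 5.24 at 21 d, with the subconfluent libraries below all others. It rose by 2.55-fold at confluence (log2 fold change 1.35 ± 0.14 (SE), edgeR adjusted p = 0.00327).

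Ccn4 and Ccn5, matricellular genes first named for their induction by Wnt1, fell at confluence. Ccn4 measured 20.6 and 20.2 RPKM in subconfluent cells, 9.11 and 7.93 at confluence, 6.33 and 9.27 at 24 h, 14.4 and 15.9 at 14 d, and 7.66 and 6.33 at 21 d. Ccn5 had 34.1 and 38.4 RPKM in subconfluent cells, 7.73 and 7.93 at confluence, 8.94 and 7.61 at 24 h, 2.02 and 2.37 at 14 d, and 7.09 and 7.42 at 21 d. Both were highest in subconfluent cells, and at confluence they fell by 2.44-fold (log2 fold change -1.28 ± 0.17 (SE), edgeR adjusted p = 0.00998) and 4.71-fold (log2 fold change -2.24 ± 0.15 (SE), edgeR adjusted p = 0.000881). From 14 d to 21 d Ccn4 fell by 2.28-fold (log2 fold change -1.19 ± 0.17 (SE), edgeR adjusted p = 0.00520) and Ccn5 rose by 3.16-fold (log2 fold change 1.66 ± 0.15 (SE), edgeR adjusted p = 0.000851).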

How the data were processed

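RNA was sequenced as 51-base paired-end reads in 10 libraries. The submitters' processing notes name FastQC, TopHat2 2.0.9, R 3.0.1 and the mm10 genome. The authors deposited a count per gene and sample, and a table in which the authors gave RPKM. The deposited RPKM table broke off in an incomplete last line, which was left out (1 gene), and had complete values for 40602 of the 40620 genes, all members among them. For 2 libraries sequenced on several lanes the merged column was used. Counts were tested in R 4.3.3 with edgeR 4.0.16 (filterByExpr over the 5 stages, TMM scaling, glmQLFit and glmQLFTest on all 10 samples), with p-values adjusted by Benjamini-Hochberg over all 20808 genes tested. The standard error (SE) was taken as the log2 fold change over √F. An F test over the 5 stages had no fold limit. Groups with 1 to 3 counts have a ratio with an exact counting interval instead of a fold.

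The members and lists were chosen with earlier results of these data known. A member is described in every sample where its mean reached 1 RPKM in some stage or where it was called, and the others by range. Of the other pathway genes those called at 21 d against subconfluent cells with a mean of at least 1 RPKM are named, at most 8, besides Ctnnb1, Porcn, Wls and Sost. The alternatives were DESeq2 1.42.0 and its size factors, no filter, a replicate block, fits of only the 2 groups or without 24 h, limma 3.58.1 (limma-trend) on log2 RPKM with 0.1 or 1 added, any fold change, the sum of the 2 lanes, and each library left out. For the class sums the alternative was TMM library sizes in place of RPKM. The scripts were tested on simulated data.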

Additional observations from a re-analysis of the deposited data

How the results depend on the processing

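Counts of called members are given as the value in the fit of all 10 samples and then under alternatives. In the order of comparisons below, 297, 443, 1245, 826, 2705 and 5740 of all genes were called in that fit. By limma-trend on log2(RPKM + 1) these were 128, 178, 500, 537, 1343 and 3396. At any fold change 1072 were called at 24 h, 3597 from 24 h to 14 d and 2023 from 14 d to 21 d. With only the 2 groups fitted 0 were called at 24 h and 319 from 24 h to 14 d. The members moved the same way. Without either confluent replicate fewer of all genes were also called at 24 h. Confluent against subconfluent cells: 7, with 3 by limma-trend on log2(RPKM + 1), 4 without subconfluent replicate A, and 4 to 8 over the left-out libraries. At 24 h against confluence: 8, with 0 when only the 2 groups were fitted, 3 by limma-trend on log2(RPKM + 1), 15 at any fold change, 3 without confluent replicate A or without confluent replicate B, and 3 to 11 over the left-out libraries. At 14 d against 24 h: 10, with 5 when only the 2 groups were fitted, 6 by limma-trend on log2(RPKM + 1), 20 at any fold change, and 7 to 13 over the left-out libraries. At 21 d against 14 d: 6, with 2 by limma-trend on log2(RPKM + 1), 11 at any fold change, 3 without 21 d replicate B, and 3 to 9 over the left-out libraries. At 14 d against confluence: 21, with 13 by limma-trend on log2(RPKM + 1) and 15 to 21 over the left-out libraries. At 21 d against subconfluent cells: 23, with 14 by limma-trend on log2(RPKM + 1) and 18 to 23 over the left-out libraries. Over the 5 stages: 33, with 28 to 38 over the left-out libraries. With the replicate letter as a block the counts were 5, 8, 9, 6, 20, 23 and 28 in this order. Over the 10 pairs of stages the A to B ratios correlated at -0.18 to 0.0995, and in 0 pairs over 0.1, so the letters were not taken as pairs. Of the 75 called changes of single members 35 kept their call under every alternative, 40 lost it under at least 1, and 0 reversed. Limma-trend on log2(RPKM + 1) ended the calls of Wnt7b, Frzb, Wif1 and Nkd2 at confluence, of Wnt11, Dkk2, Notum, Lef1 and Nkd2 at 24 h, of Wnt7b, Fzd4, Frzb and Dkk2 from 24 h to 14 d, of Wnt5a, Dkk2, Notum and Nkd2 from 14 d to 21 d, of Wnt1, Wnt2b, Wnt4, Wnt7b, Fzd4, Frzb, Dkk1 and Nkd2 at 14 d against confluence, and of Wnt4, Wnt7b, Fzd4, Fzd5, Frzb, Notum, Rspo3, Nkd1 and Nkd2 at 21 d against subconfluent cells. With 0.1 added it ended those of Wnt7b and Nkd2 at confluence, Lef1 at 24 h, Wnt1, Wnt2b and Dkk1 at 14 d against confluence, and Wnt7b, Fzd5, Notum, Rspo3 and Nkd1 at 21 d against subconfluent cells. Fits of only the 2 groups ended all calls at 24 h, those of Wnt7b, Fzd4, Fzd5, Lrp5 and Frzb from 24 h to 14 d, of Frzb at confluence and of Wnt2b at 14 d against confluence. In these fits Wnt7b at confluence and Rspo3 and Nkd1 at 21 d against subconfluent cells had too few counts to be tested, as had the latter 2 genes without the 24 h samples, so these calls were absent there as well. The cause was not tested. Each stage has 2 replicates of 1 clone, and the 24 h replicates differ widely.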
